A study of Coprinopsis cinerea with 7 samples.

Results

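The chromosome 4 interior windows are the 300 bp windows of Coprinopsis cinerea chromosome 4 that lie more than 20000 bp from either end of the chromosome as the window tables cover it. They were chosen by position alone, from the first window start after position 20000 to the last window that stops at least 20000 bp before the largest chromosome 4 stop of 3559500. There were 11731 of them among 120537 windows in all (9.73%), from position 20101 to position 3539400, and they covered 3.52 Mb. Positions are those of the deposited window tables, for which no genome build is given in the sources used. No genome sequence was used here, so no sequence is printed and sites are given by position and by the genes that overlap them.

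Coprinopsis cinerea is a mushroom-forming basidiomycete, and the DNA came from its oidia, the asexual spores that the vegetative mycelium sheds. The study profiled 5-hydroxymethylcytosine (5hmC) by turning it into cytosine-5-methylenesulfonate (CMS) with sodium bisulfite and pulling down CMS-bearing fragments with a non-commercial CMS-specific antiserum. The labels describe 7 libraries, all from oidia with no strain or treatment named. These are 5 anti-CMS immunoprecipitation (IP) libraries, 3 from biological replicate 1 and 2 from biological replicate 2, and 2 input libraries, 1 per biological replicate. The tables hold 2 IP and 2 input count columns, tagged 1_1 and B_1, and no label carries these tags. Whether technical replicates were merged into the IP columns is not stated, so every p-value below measures only the spread between these columns, which may be technical.

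As background, 5hmC is made from 5-methylcytosine by dioxygenases of the TET/JBP family, which oxidize the methyl group further in steps. Fungal 5-methylcytosine is concentrated in transposons and other repeats, and active gene bodies carry little of it. A pull-down compares how often a place in the genome is found after IP with how often it is found in input DNA, so a fold is a relative enrichment and not a share of modified cytosines.

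Read depth was highest in the IP columns of the primary table. Summed over the chromosome 4 interior, that table held 10319762 counts in IP 1_1, 6501724 in IP B_1, 3522692 in input 1_1 and 3529582 in input B_1, and the median window held 767, 475, 280 and 288 counts in the same order. A second table, named for multiple mapped and unique reads and called the multi-mapped table here, held a median of 180, 137, 217 and 210 counts per window. Its highest count on these windows was 1050, against 34410 in the primary table. Levels below are CPM of the TMM-scaled library divided by the length in kb (CPM per kb).

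Of the 11653 chromosome 4 interior windows with at least 10 counts in the primary table, 1126 were higher in IP than in input (edgeR quasi-likelihood test, Benjamini-Hochberg adjusted p under 0.05). That is 9.66% of them, beside 8.75% of all tested windows of the series. Most of the enrichment was shallow. The median called window was 1.50-fold higher in IP, with a median log2 fold change of 0.58 and quartiles of 0.48 and 0.85. At least 2-fold enrichment was found in 217 windows (1.86%, beside 1.80% of all tested windows), and at least 4-fold enrichment in 68 (0.584%, beside 0.632%). All 3 shares lay near those of the series. In each of the 1126 called windows both IP columns lay above both inputs on the CPM scale. The calls rest on these same columns, so this is not separate support. It was also so in 2054 of the 10467 tested windows that were not called.

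Windows lower in IP were rare. The test called 60 of them lower (0.515%, beside 0.640% of all tested windows), with a median log2 fold change of -0.43 and a lowest of -0.69. By edgeR's quasi-likelihood test 0 windows were both called and at least 2-fold lower, 3 windows at least 2-fold lower had an unadjusted p under 0.05, and DESeq2 called 0 of that size.

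These counts depended on single columns. With IP 1_1 left out the edgeR test called 1900 windows higher and 1060 lower, and with IP B_1 left out 1585 higher and 560 lower. Fewer calls were made with an input column left out, 571 higher and 2 lower for input 1_1 and 444 higher and 14 lower for input B_1. The 444 and 571 windows were nearly all within the main set, with 443 and 552 of them shared. Scaling to library totals in place of TMM factors shifted the median log2 value over all tested windows from -0.01 to -0.16 and gave 654 higher and 749 lower windows, so that 46.6% of the calls were higher in place of 94.9%.

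The multi-mapped table gave the same picture at a smaller size. It called 883 of 11731 windows higher (7.53%, beside 7.00% of all windows there) and 93 lower (0.793%, beside 0.816%). At least 2-fold enrichment was found there in 45 windows (beside 0.438% of all) and at least 4-fold enrichment in 1 window (beside 0.00415%). Both tables called 712 windows higher, which is 63.2% of the primary calls and 80.6% of the multi-mapped calls. This overlap was 301 windows without input 1_1, 248 without input B_1 and 1162 without IP 1_1. The multi-mapped log2 fold change was above 0 in all 1126 windows called in the primary table. It was above 0 in 4292 of the 10467 tested windows that were not called there. The tables were made from the same samples, so the second is not an independent repeat.

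Among the interiors of the 13 chromosomes, chromosome 4 held the fifth highest share of enriched windows in the primary table and the seventh in the multi-mapped table. The other 12 ranged from 4.43% on chromosome 5 to 13.1% on chromosome 6, and taken as 1 set they had 8.14%. The 3 interiors closest to it in size had 8.44% (chromosome 2), 6.55% (chromosome 3) and 4.43% (chromosome 5). These differences between chromosomes were not tested. In the outermost 20000 bp of chromosome 4 itself, 48.1% of 131 tested windows were higher in IP.

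Enrichment along the chromosome 4 interior was gathered in a few places. In 71 bins of 50 kb the median share of higher windows was 3.59%, while 12 bins at or above 20% held 691 of the 1126 higher windows (61.4%) in 16.9% of the tested windows. In 15 bins the edgeR test called 0 windows higher. Of the 2425 windows tested in those bins, 46 were higher at an unadjusted p under 0.05 and DESeq2 called 0.

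**Figure D1:**
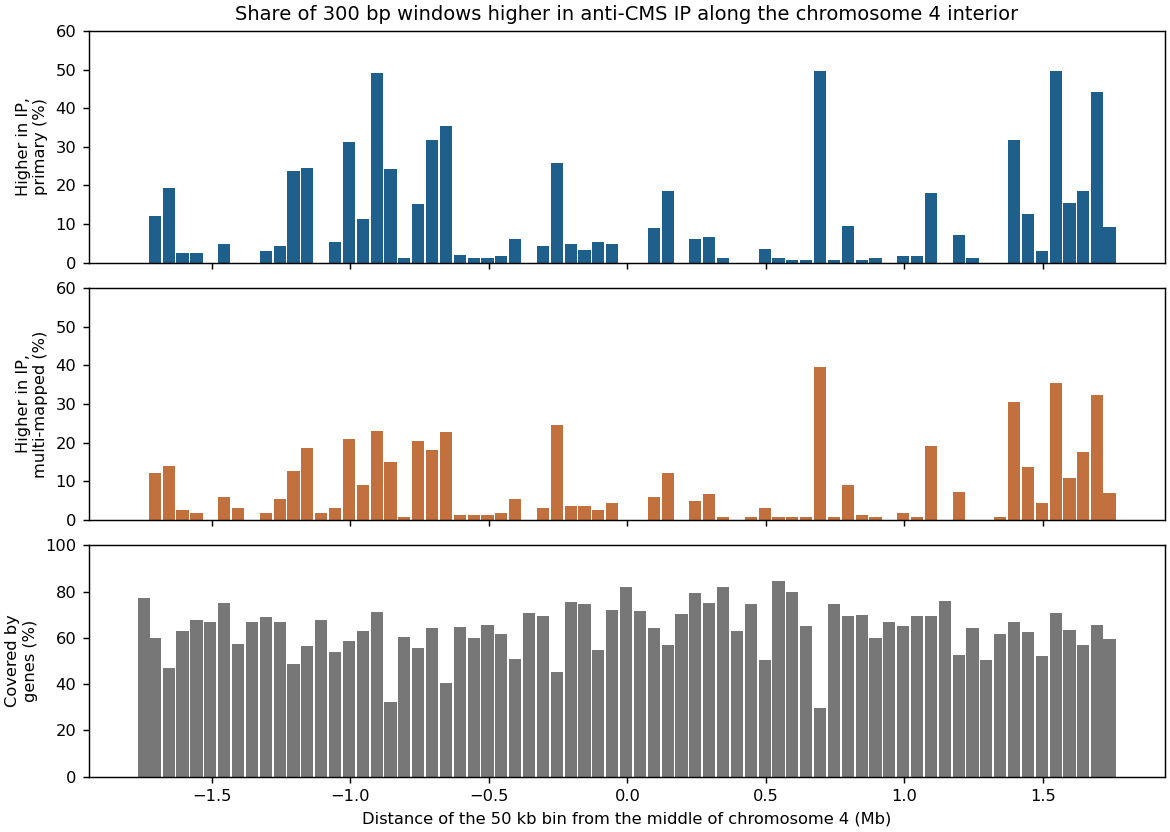
Each bar is a 50 kb bin of the chromosome 4 interior, placed by its distance in Mb from the middle of the chromosome. The upper panels give the percentage of tested windows called higher in IP in the primary and the multi-mapped table, and the lower panel the percentage of the bin covered by genes. The tallest bars of the primary table reach 49.7% in 2 bins and 49.1% in 1 more, and 41 of the 71 bins lie under 5%.

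The densest bins were 2450101 to 2500200 and 3300001 to 3350100, each with 83 of 167 tested windows higher (49.7%), and 850201 to 900000 with 80 of 163 (49.1%). In the first of these the median window level was 38.9 CPM per kb in IP 1_1, 39.7 in IP B_1, 28.8 in input 1_1 and 27.8 in input B_1. In the second the median levels were 51.3, 53.1, 39.7 and 39.5 CPM per kb in the same order, and in the third 45.7, 48.5, 35.5 and 34.6. Both IP medians lay above both input medians in each bin, by a small margin. The bin from 2450101 held 7 windows of at least 2-fold and the others 0, so these bins were dense in shallow enrichment. They differed in gene content: genes covered 29.5% of the bin from 2450101, 70.8% of that from 3300001 and 71.1% of that from 850201. By the multi-mapped counts the shares were 39.5% in the bin from 2450101, 35.3% in that from 3300001 and 22.9% in that from 850201. The last lay below the 32.3% of the bin from 3450001 there. With a column left out, the densest bin need not be the same one. In the primary table the share in the densest bin was 75.4% without IP 1_1 and 70.7% without IP B_1. It was 27.5% and 15% with input 1_1 and input B_1 left out in turn.

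Across the 71 bins the share of higher windows and the share of bases in genes had a Pearson correlation of -0.41, a description over neighbouring bins of the same columns. Bins at or above 20% had 54.2% of their bases in genes, and bins under 5% had 67.9%. By stretches of about 500 kb, the share was 17.5% from 500101 to 1000200 and 17.7% from 3000001 to 3500100, and 4.08% from 2500201 to 3000000. By distance from the nearer end of the chromosome, with both ends pooled, it was 18.5% at 20 to 100 kb and 10.5% at 100 to 500 kb. It was 10.8% at 500 to 1000 kb and 7.61% beyond 1000 kb. The ends were not alike, so these pooled shares do not describe each end. The stretch from 20101 to 500100 had a share of 4.56%. At the other end it was the 17.7% given above, and 9.16% from 3500101 to 3539400.

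Long stretches held no window called higher. The longest ran from 347401 to 480600, over 444 tested windows and 52 genes, with a median log2 fold change of -0.07 and a highest of 0.47. The next were 3038701 to 3168600 with 433 tested windows and 2145601 to 2271600 with 412. By edgeR 9, 5 and 8 windows of these stretches were higher at an unadjusted p under 0.05, and DESeq2 called 0 in each. The multi-mapped table called 5, 1 and 1 windows higher in them. The first stretch ended just before CC1G_14326, one of the most enriched genes.

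Neighbouring higher windows were joined across gaps of at most 1 window, and runs with at least 3 called windows were kept as enriched regions. The chromosome 4 interior had 130 such regions with 902 of the 1126 called windows (80.1%), and the other 224 called windows lay outside them. The regions covered 291600 bp (8.29% of the interior), their lengths had a median of 1800 bp and a maximum of 9900 bp, and 11 were longer than 5000 bp. On chromosomes 2, 3 and 5, the interiors closest in size, regions covered 7.44%, 5.66% and 3.80%. Of the 130, 33 overlapped no gene (25.4%, beside 27.8%, 23.0% and 21.7% on chromosomes 2, 3 and 5). The median fold of the 130 regions was 1.50 in the primary table (range 1.33 to 14.8). In the multi-mapped table it was 1.30 (range 1.17 to 2.44). All 130 had both IP columns above both inputs, in the same columns that gave the calls. Of the 130, 117 held a window called in the multi-mapped table as well. Without input 1_1 there were 72 regions and without input B_1 there were 56. A region's fold is a ratio of mean levels and was not tested on its own.

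The regions came in very different heights. In 28 regions (21.5%) the IP mean was at least 2-fold the input mean. That share was 24.1%, 32.2% and 40% on chromosomes 2, 3 and 5, and the difference was not tested. The 28 had a median fold of 3.06, or 1.62 by the multi-mapped counts. The 102 others had medians of 1.45 and 1.28. Region length had the same median of 1800 bp in both classes. The IP columns differed more in the tall regions: B_1 over 1_1 had a median of 1.33 there and lay above 1 in 28 of 28, against a median of 1.06 and 80 of 102 in the shallow ones.

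**Figure D2:**
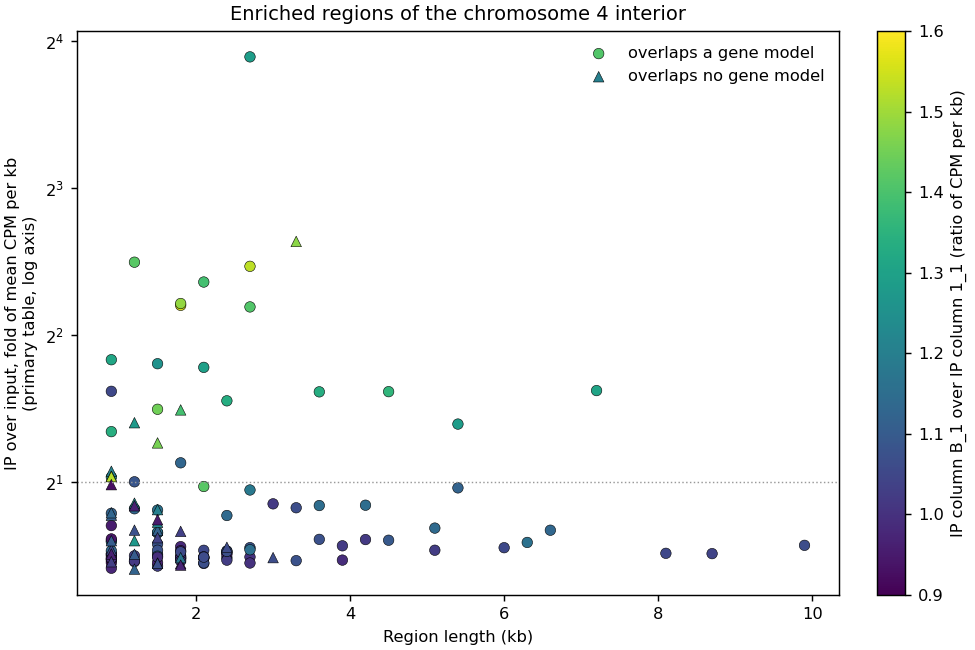
Each symbol is 1 of the 130 enriched regions, placed by its length in kb and its fold of IP over input (mean CPM per kb, primary table, log axis), with triangles for the 33 regions that overlap no gene. Colour gives the ratio of IP column B_1 to IP column 1_1, and the dotted line marks 2-fold. The tallest region reaches 14.8-fold at 2700 bp, and the longest, 9900 bp, has a fold of 1.48.

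The strongest site of the chromosome 4 interior lay at 1365301 to 1368000, a region of 9 windows that were all called. Its level was 317 CPM per kb in IP 1_1, 408 in IP B_1, 25.5 in input 1_1 and 23.4 in input B_1. The columns of IP stood far above the inputs, at 362 ± 64.5 against 24.5 ± 1.53 (SD, n = 2 columns each), a 14.8-fold difference. In the multi-mapped table the region was 1.94-fold higher.

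Within it, the window from 1366501 to 1366800 held 33879 counts in IP 1_1, 27303 in IP B_1, 224 in input 1_1 and 197 in input B_1. Its log2 fold change of 6.11 ± 0.32 (SE) was the highest of the chromosome 4 interior (edgeR quasi-likelihood adjusted p = 1.50e-07). The neighbouring window from 1366801 followed with a log2 fold change of 5.30. In the multi-mapped table the first of them held 766, 763, 446 and 399 counts and a log2 fold change of 1.28. A single gene model, CC1G_14366 at 1366942 to 1367258, overlapped the region. In the authors' deposited table this window also had the largest log2 fold change of the chromosome 4 interior, 6.06 as IP over input.

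The 9 sites next in order of mean window log2 fold change were 3.49-fold to 6.21-fold higher in the primary table. The region from 1737901 to 1740000, over CC1G_06291 and CC1G_06292, had 52.9 and 73.6 CPM per kb in IP 1_1 and B_1 against 12.1 and 12.5 in the inputs (5.13-fold). It was the most enriched region in the multi-mapped table, at 2.44-fold, with 28.9, 33.1, 12.8 and 12.6 CPM per kb. Its inputs were thus at about the same level in both tables, while its IP levels were lower in the multi-mapped one.

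A site without a gene lay at 2982001 to 2985300, between CC1G_06245 and CC1G_06248. It had 174 and 256 CPM per kb in the IP columns against 34.4 and 34.8 in the inputs, a 6.21-fold difference, and 1.97-fold in the multi-mapped table. All 11 of its windows were called in both tables. Those from 2983801 and 2984101 had log2 fold changes of 4.24 and 4.09. In the multi-mapped table these were 1.78 and 1.66. At 3386401 to 3387600, over CC1G_04116 and CC1G_14508, the levels were 128 and 182 CPM per kb in IP against 29.3 and 25.8 in input (5.63-fold). At 55201 to 57900, in the long gene CC1G_12134, they were 117 and 165 against 30.3 and 31.4 (4.56-fold).

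At 609901 to 612600, over CC1G_14334, the IP columns stood at 102 and 156 CPM per kb and the inputs at 22.9 and 23.9 (5.52-fold). At 3181801 to 3183600, over CC1G_08113, they stood at 128 and 190 against 35.3 and 33.2 (4.64-fold). At 2880001 to 2881500, over CC1G_06207, they stood at 109.9 and 138 against 34.9 and 36.1 (3.49-fold). At each of these 3 sites the lower IP column was at least 3 times the higher input.

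The remaining pair had few reads in the primary input. At 559201 to 560100, over CC1G_12752, the inputs stood at 9.94 and 10.03 CPM per kb and the IP columns at 30.7 and 40.3 (3.56-fold), while the multi-mapped input level was 4.88 times the primary one and the fold there 1.66. At 1643701 to 1645500, over CC1G_10953, the inputs stood at 7.77 and 8.12 and the IP columns at 28.5 and 44.5 (4.60-fold). The multi-mapped input level over the region was 4.15 times the primary one and the fold there 1.44. Its highest window, 1644001 to 1644300, lay outside genes, with 62.0 and 116 CPM per kb in IP against 3.63 and 3.83 in input. The log2 fold change of that window was 4.57. In the multi-mapped table it was 1.99, with inputs at 6.44 and 8.41 CPM per kb. Column B_1 was the higher IP column at all 10 sites. What the lower primary input contributed to these folds was not tested.

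**Figure D3:**
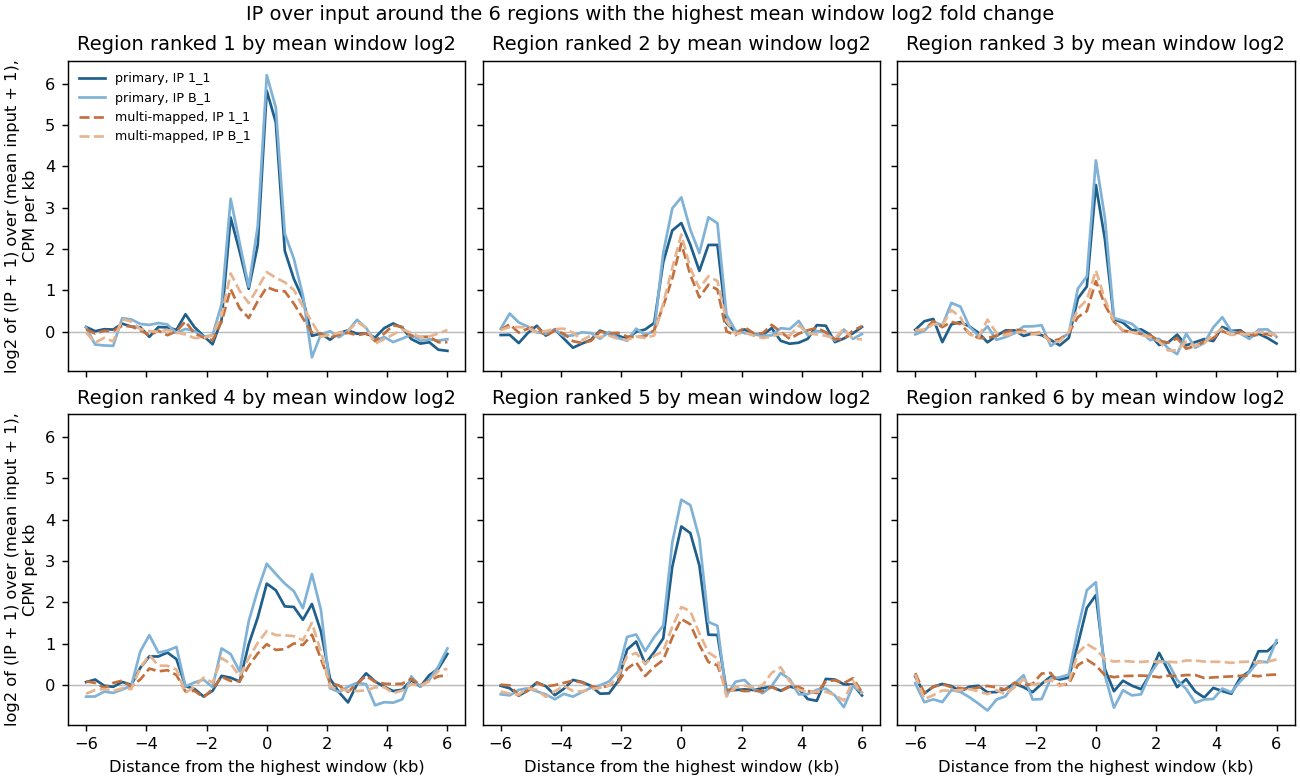
Each panel shows 1 of the 6 strongest regions by mean log2 over their windows, from 6 kb before to 6 kb after its highest window, as log2 of each IP column over the mean input (CPM per kb with 1 added), for the primary (solid) and multi-mapped (dashed) tables. The panels are the regions from 1365301, 1737901, 3386401, 55201, 2982001 and 559201 in rank order. Their highest windows had edgeR log2 fold changes, which differ from the plotted measure, of 6.11, 3.23, 3.96, 2.74, 4.24 and 2.63. The second panel has the tallest multi-mapped peak, and in the sixth the multi-mapped columns stay above 0 to the right of the site, at 0.25 in IP 1_1 and 0.62 in IP B_1 at 6 kb.

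These sites were narrow. The unbroken run of windows at least 2-fold higher around the highest window was 900 bp long at 3386401, 559201 and 1643701 and reached 2700 bp at 55201. It was 2400 bp long at 1365301 and at 2982001, and 2100 bp at 1737901. The profiles at 1365301 had 2 summits separated by a dip, as had those at 1737901, 55201 and 609901. At 609901 the log2 value in IP 1_1 fell from 1.95 to 0.05 before it rose to 3.63. Smaller dips at other sites are not listed.

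The longest regions were mostly shallow. The longest ran from 3168601 to 3178500, with 30 of 33 windows called and genes over 92.0% of it. Its levels were 57.3 CPM per kb in IP 1_1, 60.8 in IP B_1, 40.6 in input 1_1 and 39.0 in input B_1 (1.48-fold, and 1.28-fold in the multi-mapped table). The IP columns lay close together and both above the inputs. The regions from 2472301 to 2481000 (1.43-fold), from 3304501 to 3312600 (1.43-fold), from 1093801 to 1100400 (1.59-fold), from 841201 to 847500 (1.50-fold), from 770101 to 776100 (1.47-fold) and from 1018501 to 1023600 (1.61-fold) were of the same kind.

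The other 3 of the 10 longest had higher folds. From 2853601 to 2860800, over CC1G_06198, CC1G_14464 and CC1G_06201, all 24 windows were called. The levels were 108 and 142 CPM per kb in the IP columns against 41.4 and 39.9 in the inputs (3.08-fold, 1.64-fold in the multi-mapped table). From 2047801 to 2053200, over CC1G_06404, CC1G_06405 and CC1G_06406, they were 126 and 162 against 56.1 and 53.8 (2.63-fold). From 106501 to 111900, where genes covered 10.3%, they were 45.3 and 50.7 against 25.1 and 24.3 (1.94-fold).

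Regions also lay near one another. Joined where they were at most 10 kb apart, the 130 regions formed 34 clusters, and the 10 clusters with at least 5 regions held 89 regions (68.5%). The largest ran from 841201 to 918600 with 19 regions, and 28 of the 33 genes tested in it were called higher. Its region folds ran from 1.35 to 2.53. A cluster from 3467401 to 3504900 had 11 regions and 16 of 16 tested genes called higher, with folds of 1.38 to 2.93. Genes in clusters are summed over the same windows that were called, so high gene counts there follow in part from the joining. Of all tested genes, 14.0% were called higher in the chromosome 4 interior and 11.2% in the series. A cluster from 2452201 to 2500500 had 12 regions with only 27.3% of its bases in genes. The cluster from 583501 to 632400, with 10 regions, held the most windows of at least 2-fold, 22 of 162 tested, and its region folds ran from 1.43 to 5.52.

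Counts were summed per gene over the windows whose midpoint lies in it. The gene table gives locus tags without product names, so no function is given for any gene. Of 1350 genes annotated in the chromosome 4 interior, 1320 had a window midpoint and 1318 were tested. Of these, 184 were higher in IP (14.0%, beside 11.2% of all tested genes), with a median log2 fold change of 0.49. At least 2-fold enrichment was found in 21 (1.59%, beside 1.47%), and 2 genes were lower (0.152%, beside 0.544%). By the multi-mapped counts, 186 genes were higher (beside 11.1% of all), 10 lower (beside 0.611%) and 2 at least 2-fold higher (beside 0.234%). Both tables called 167 genes higher, and 1 lower. In 46 of the 184 every tested window was itself called, and 11 had no called window.

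CC1G_14366, the short gene in the strongest site, was the most enriched. Its level was 967 CPM per kb in IP 1_1, 1249 in IP B_1, 50.4 in input 1_1 and 50.4 in input B_1. Both IP columns stood far above both inputs, with a log2 fold change of 4.46 ± 0.12 (SE, edgeR quasi-likelihood adjusted p = 1.21e-07) and of 1.18 in the multi-mapped table.

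CC1G_14508, at 3386941 to 3387418, rested on a single window. It had 293 and 445 CPM per kb in the IP columns against 27.1 and 19.3 in the inputs, and a log2 fold change of 3.99 ± 0.21 (edgeR quasi-likelihood adjusted p = 3.30e-06). Its multi-mapped log2 fold change of 1.44 was above that of CC1G_14366. These were the 2 genes past 2-fold in the multi-mapped table.

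CC1G_14334, at 610403 to 613245, had 141 and 216 CPM per kb in the IP columns against 31.1 and 31.4 in the inputs (log2 fold change 2.51 ± 0.16). CC1G_06405, at 2049308 to 2050851, had 341 and 475 against 97.5 and 94.0 (2.09 ± 0.13). CC1G_12395, at 744234 to 745192, had 148 and 235 against 50.1 and 47.9 (1.96 ± 0.17). In all 3 B_1 was the higher IP column.

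The other 7 of the 12 highest genes were CC1G_06201, CC1G_06207, CC1G_14333, CC1G_12134, CC1G_07061, CC1G_14326 and CC1G_08117, with log2 fold changes from 1.65 down to 1.48. Among them CC1G_12134 covered 16 windows, of which 8 were called, so its enrichment lay in one portion of the gene. Of the 3 windows of CC1G_14326 only 1 was called, while all 4 of CC1G_08117 were. All 12 were also called higher in the multi-mapped table, at log2 fold changes from 0.38 for CC1G_14326 to 1.44 for CC1G_14508.

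**Figure D4:**
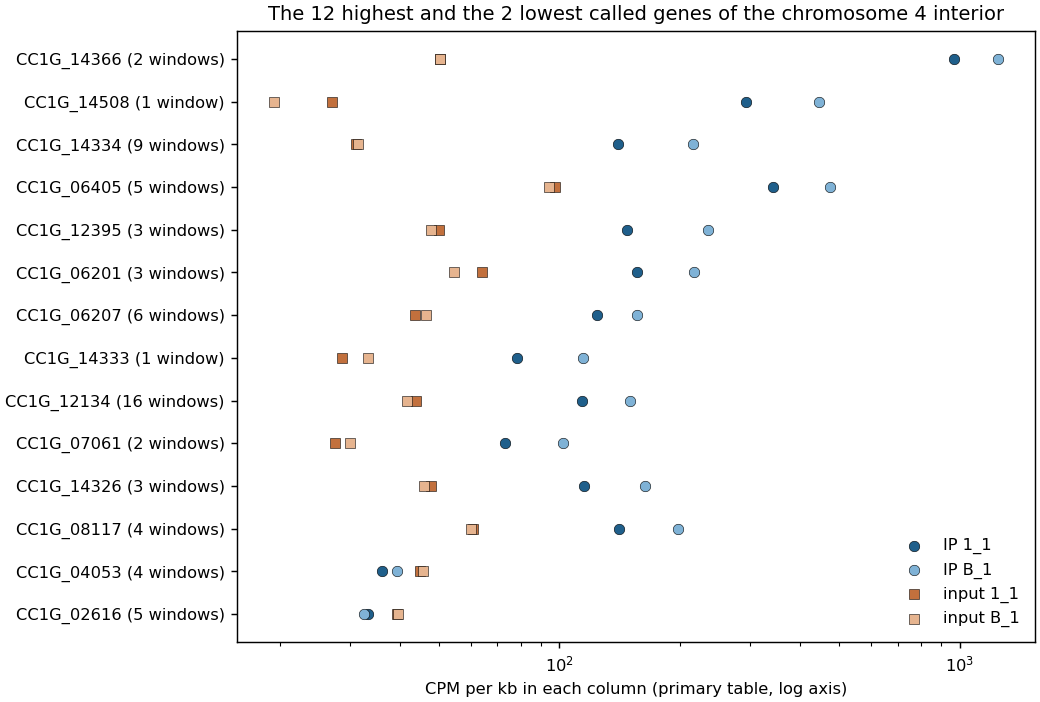
Points give the level of each of the 12 highest and the 2 lowest called genes of the chromosome 4 interior in the 2 IP (circles) and 2 input (squares) columns, in CPM per kb of the primary table on a log axis, with the number of windows behind each gene. In the 12 highest genes both circles lie to the right of both squares, from 967 and 1249 against 50.4 for CC1G_14366. In the 2 lowest both circles lie to the left by a small margin. Genes were picked only with this order of columns, so the order itself is not a result.

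The most enriched gene of each of the 3 densest bins had a low fold. In the bin from 2450101, CC1G_07557 was the most enriched gene, at 54.4 and 63.5 CPM per kb in IP against 41.0 and 34.2 in input (log2 fold change 0.65 ± 0.11). In the bin from 3300001 it was CC1G_04085 at 71.6 and 75.5 against 50.8 and 47.3 (0.58 ± 0.07), and in the bin from 850201 it was CC1G_10768 at 83.0 and 88.8 against 57.3 and 57.7 (0.58 ± 0.07). All 3 windows of each of these genes were called. The lowest genes of these bins, CC1G_07115, CC1G_04083 and CC1G_10770, had log2 fold changes of -0.01, 0.24 and 0.22 and did not pass the edgeR test. They had 0 of 5, 0 of 3 and 0 of 1 windows called higher in the same order.

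Enriched windows were found more often outside genes than inside them. Outside genes 542 of 4231 tested windows were higher in IP (12.8%), and inside genes 584 of 7422 (7.87%), a ratio of 1.63. Over all windows of the series the shares were 13.6% and 6.14%, a ratio of 2.21. In the multi-mapped table the shares were 10.1% and 6.08%, a ratio of 1.66. With an input column left out the ratio was 2.19 (input 1_1) and 2.03 (input B_1), where far fewer windows were called. By distance to the nearest gene the share was 9.91% within 300 bp, 13.3% at 301 to 1000 bp, 17.0% at 1001 to 2000 bp, 24.2% at 2001 to 4000 bp and 16.7% of 66 windows beyond that. In the multi-mapped table the shares were 8.67%, 11.7%, 11.6%, 11.9% and 0% in the same order. Primary input fell along the classes, from a median of 23.2 through 14.3 at 2001 to 4000 bp to 8.79 CPM per kb, while multi-mapped input was 22.8 in the first class, 62.6 at 2001 to 4000 bp and 90.04 CPM per kb in the last. Their part in the shares was not tested.

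The primary ratio of 1.63 was the lowest among the 13 interiors, next to 1.64 on chromosome 12 and 1.65 on chromosome 11, and the highest was 3.09 on chromosome 5. In the multi-mapped table chromosome 12 had a lower one (1.32). The share inside genes on chromosome 4, 7.87%, stood above the 5.77% of chromosome 2, the 3.98% of chromosome 3 and the 2.77% of chromosome 5. It was exceeded on chromosomes 6 (10.1%), 9 (9.70%), 12 (9.54%) and 11 (9.12%), and on no other interior. The share outside genes, 12.8%, lay below the 14.2% of chromosome 2, near the 12.1% of chromosome 3 and above the 8.55% of chromosome 5. These differences were not tested.

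**Figure D5:**
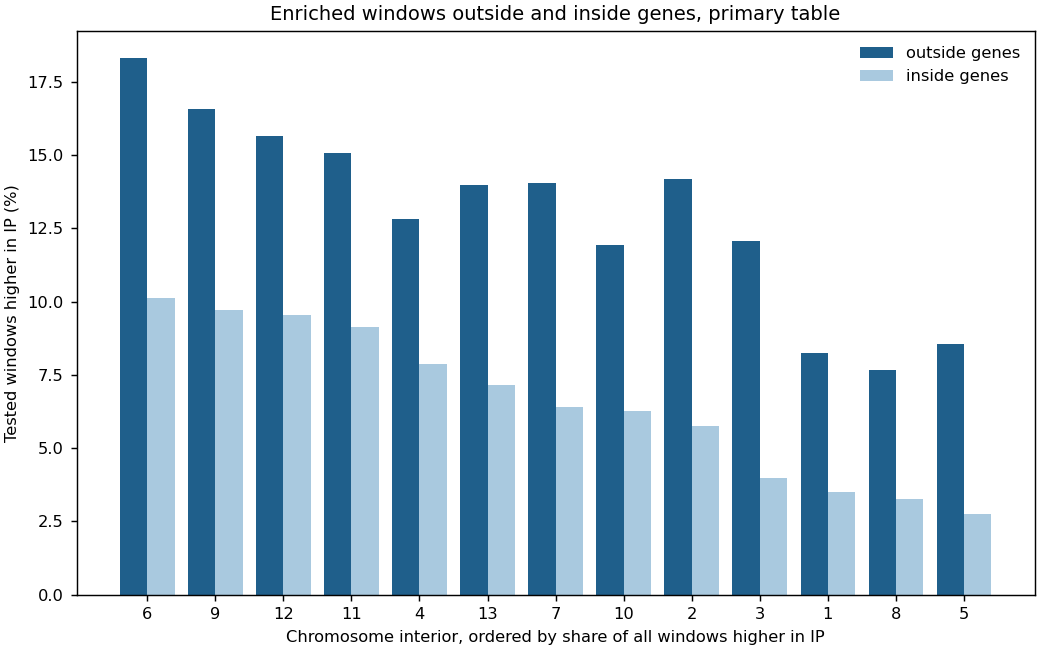
Bars give the percentage of tested windows called higher in IP (primary table) outside and inside genes for the interior of each chromosome, ordered by the share over all its windows. Chromosome 4 has the fifth place, with 12.8% outside and 7.87% inside genes, and the outside bar is the taller one on every chromosome.

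Transfer RNA genes, which encode the adaptors of translation, showed no called enrichment. Of 31 annotated in the chromosome 4 interior, 13 held a window midpoint and were tested. The edgeR quasi-likelihood test called 0 of them, 0 had an unadjusted p under 0.05, and DESeq2 called 0. Their log2 fold changes ran from -0.14 to 0.28 with a median of 0.04, beside a median of -0.01 over all tested genes. Each of the 13 rested on 1 window. Of all tested genes of the series 11.2% were called higher, and whether 0 of 13 differs from that share was not tested.

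Most lower windows lay inside genes, 52 of 60 (86.7%), near the 84.3% of all 764 lower windows of the series, while 7422 of the 11653 tested chromosome 4 interior windows lay inside genes. The lowest was 2509501 to 2509800, outside genes, with 11.8 CPM per kb in IP 1_1, 10.7 in IP B_1, 18.0 in input 1_1 and 18.4 in input B_1. Both IP columns were below both inputs, with a log2 fold change of -0.69 ± 0.14 (edgeR quasi-likelihood adjusted p = 0.00736), and the multi-mapped table called it lower too at -0.46. The call was lost without either input column, at log2 fold changes of -0.71 and -0.67.

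The next lowest windows began at 2883301 in CC1G_06208, 819301 in CC1G_10749, 3008701 at the edge of CC1G_06253 with its midpoint outside the gene, and 3287101 in CC1G_04076, with log2 fold changes from -0.59 to -0.56. Each lost its call without at least 1 of the input columns, and the last was not called in the multi-mapped table (-0.13). Runs of 2 lower windows numbered 6, each 600 bp long. The 5 with the lowest folds began at 2883001, 2509501, 819001, 2736901 and 1623901, with IP levels of 0.685 to 0.742 times input, or 0.745 to 0.874 times by the multi-mapped counts.

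The 2 lower genes were CC1G_04053 and CC1G_02616, in protein-coding models at 3208383 and 233138. CC1G_04053 had 36.1 and 39.3 CPM per kb in the IP columns against 45.0 and 45.8 in the inputs, and CC1G_02616 had 33.3 and 32.5 against 39.2 and 39.5. Both IP columns lay below both inputs by a small margin, at log2 fold changes of -0.27 ± 0.07 and -0.26 ± 0.07 (edgeR quasi-likelihood adjusted p = 0.0427 and 0.0299). Both calls were lost without either input column, and that of CC1G_04053 also with DESeq2 and in the multi-mapped table, where its log2 fold change was -0.16.

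Some windows were nearly empty in the primary table alone. The 78 chromosome 4 interior windows with under 10 counts there summed to a median of 776.5 counts over the multi-mapped inputs, against 427 for the tested windows. Of the 78, 34 lay between 1000201 and 1100100, and runs of at least 5 lay at 1054501 to 1057200, 1072201 to 1074000, 1646101 to 1650300 and 2184001 to 2186100. The multi-mapped table called 16 of the 78 higher (20.5%, beside 7.00% of all windows there) and 0 lower (beside 0.816%). Log2 fold changes of the 78 there ran from -0.43 to 0.59.

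A further 651 windows had a multi-mapped input level over 2 times the primary one. By the primary counts, 26.4% of these were higher in IP and 46 at least 2-fold, against 8.67% of the 11002 windows with input levels within 2 times. By the multi-mapped counts the shares were 20.3% and 6.68%. These windows thus held 172 of the 1126 calls.

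The IP columns parted with the height of the enrichment. Column B_1 lay above 1_1 in 852 of the 1126 called windows (75.7%), in 67 of the 68 windows of at least 4-fold, where the median difference was 0.54 on the log2 scale, and in 47.5% of the tested windows that were not called. The inputs differed by a median of -0.01 on the log2 scale in the windows of at least 4-fold. Called windows also had more input than the rest, with medians of 32.0 and 24.4 CPM per kb. Whether the tags mark biological replicates cannot be told from the labels.

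In the authors' deposited table, 372 chromosome 4 interior windows of the primary and 347 of the multi-mapped data passed an adjusted p under 0.05 as higher in IP, and 0 as lower. Of these, 371 and 254 were called higher here.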

How the data were processed

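Oidia DNA was purified with a Qiagen plant kit and sequenced from TruSeq libraries, per the labels' protocols. Bismark 0.6.4, Bowtie 0.12.7 and edgeR are named in the submitters' processing notes. For genome build, read extension and duplicate handling, nothing was stated in the sources used.

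The authors deposited counts per 300 bp window in 2 tables, per the file headers; the 8 per-sample RPKM columns were not used. Their deposited log2 fold changes (input over IP, sign turned here) and adjusted p-values were read only for the authors' calls.

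Windows and summed gene counts were tested over the whole tables with edgeR 4.0.16 (R 4.3.3): TMM, quasi-likelihood, 2 IP against 2 input columns, total of at least 10 counts, Benjamini-Hochberg adjusted p under 0.05. Standard errors come from the F statistic. Scripts were tested on simulated data. DESeq2 1.42.0, other scalings and filters, and each column left out were alternatives. No test against other chromosomes was made.

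Named are the 5 highest and 5 lowest windows, the 10 longest and the 10 strongest regions (those of at least 2-fold were too many to name each), the 5 lowest runs, the 12 highest and the lowest called genes, and the highest and lowest genes of the 3 densest bins; 15 bins tied as least dense and are given as a count. The named highest and lowest called genes were kept only if both IP columns lay on the same side of both inputs. That order of their columns was thus fixed by the choice. Single features such as clusters and stretches were chosen after their values were seen. Members and lists were chosen with earlier results of these data known.

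Genes come from a RefSeq table of assembly CC3. Input counts on chromosome 4 correlated with gene cover at 0.204 without shift, the highest of all shifts up to 300 windows, and at no more than 0.0756 beyond 10 windows. Gene lists by product name were not analysed here.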

Additional observations from a re-analysis of the deposited data

How the results depend on the processing

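Column choice limits most counts. Leaving out each column in turn gave 444 to 1900 higher windows, 2 to 1060 lower windows, 56 to 173 regions, 15% to 75.4% in the densest bin, an outside to inside ratio of 1.63 to 2.19, and 248 to 1162 windows called in both tables; the genes higher (160 to 250) stayed within 1.5 times 184. Library totals gave 654 higher and 749 lower windows, 83 regions and 26.3% in the densest bin. DESeq2 called 14 windows lower. With a replicate block from the column tags, 1638 windows were higher, 465 lower, and the densest bin stood at 78.4%. The tags' deviations correlated between IP and input at 0.205 (primary) and 0.067 (multi-mapped), and with 2 pairs they share only a tag. The densest bin need not be the same one in each setting. The cause of these shifts was not tested. An adjusted p under 0.01 left 575 higher and 5 lower windows and 72 regions. Requiring 2-fold left 217 and 0 windows, 25 regions and 21 genes. The multi-mapped table had 93 lower windows and 39.5% in its densest bin. Joining across gaps of 5 windows gave 73 regions, bins of 20 and 100 kb gave 63.6% and 32.6%, any overlap with a gene gave a ratio of 1.82, and sums over 5 windows gave 391 higher units, each from other units counted. Over the alternatives of the 30 named items, 309 values kept their call and direction, 14 lost a call, 4 gained one and 3 changed sign without a call: CC1G_07115, at -0.01, had log2 fold changes of 0.05 without IP B_1, 0.03 without input 1_1 and 0.07 in the multi-mapped table.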
